A study of Mus musculus with 27 samples.

Results

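The 10 genes described here carry the insulin-like growth factor (IGF) and insulin signal: the ligands Igf1 and Igf2, the receptors Igf1r, Insr and Igf2r, the receptor substrates Irs1 and Irs2, and the binding proteins Igfbp4, Igfbp5 and Igfbp7. They were taken by name, and all 10 are among the 8987 genes of the deposited mRNA table, which gives RPKM (reads per kilobase of gene, scaled to the library's mapped reads) in 11 libraries. Each library came from the heart left ventricle of an adult FVB mouse, collected 7 days after a sham operation or after TAC, transverse aortic constriction, which loads the left ventricle with pressure. The wild-type (WT) groups were WT sham (n = 4, animals 6, 7, 13 and 15) and WT TAC (n = 3, animals 1, 17 and 19). The transgenic groups carry caPI3Kalpha, a constitutively active form of the kinase subunit PI3Kalpha, and were caPI3Kalpha sham (n = 2, animals 5 and 8) and caPI3Kalpha TAC (n = 2, animals 11 and 211). All 4 groups share the FVB strain and had an operation, so there is no group without surgery. The labels do not name the promoter of the transgene. The source name of WT sham 15 carries another animal's number; the number in its title was used.

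IGF1, IGF2 and insulin bind receptor tyrosine kinases (IGF1R and the insulin receptor), which phosphorylate the substrates IRS1 and IRS2. These recruit class I PI3K, whose catalytic subunit p110alpha is the product of Pik3ca, and the signal passes to Akt. IGF2R has no kinase domain and carries IGF2 to the lysosome, while the binding proteins hold IGFs in the extracellular space and can limit or prolong their access to the receptor. In the heart this pathway is known for its part in growth of cardiomyocytes, and the transgene acts at the PI3K step, below all 10 genes.

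Pik3ca, the gene of the transgene's product, was at 5.3 to 8.9 RPKM in the 7 WT libraries, 115.4 and 195 RPKM in caPI3Kalpha sham and 101.3 and 110.5 RPKM in caPI3Kalpha TAC, as the genotype labels say. Summed RPKM ran from 202916.4 to 212396.3 per library; the number of reads behind it is unknown. The libraries fell into 2 sets along the main axis of variation (first principal component, 52.0% of variance). In the first set were all 4 caPI3Kalpha libraries with WT sham 6 and WT TAC 1, and the other 5 WT libraries made up the second. Over all genes the rank correlation of libraries (Spearman's rho) was 0.931 to 0.989 within the sets and 0.848 to 0.913 across them. The labels give no such split. They say that 6 barcoded mRNA libraries were pooled per lane without saying which, and the sets hold 6 and 5 libraries. Genotype and set are partly confounded, since no caPI3Kalpha library is in the second set. Results are therefore given also with a term for library set in the model. The sets were read from the same expression values that are tested, not from a recorded batch. Adjusted p-values with the term may therefore be too small. The cardiomyocyte markers (9 of 9 listed, summed to between 18117 and 24068.4 RPKM) fit the labelled tissue; caPI3Kalpha TAC 11 had the highest sums of 4 red blood cell markers (761.4 RPKM) and of 3 atrial markers (54.9 RPKM against 12 or less in the other 10 libraries).

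In WT sham hearts the 10 transcripts spanned from Igfbp7 at 55.2 ± 11.8 RPKM (SD, n = 4), above 94.3% of the listed genes, to Irs2 at 1.30 ± 0.97 RPKM, near the bottom of the table. Igfbp7, a secreted binding protein with low affinity for IGFs, stood apart from the next gene in every group. Igf2r at 23.8 ± 1.06, Igfbp4 at 19.4 ± 3.84, Insr at 18.0 ± 2.66 and Igfbp5 at 14.3 ± 3.17 RPKM followed, each overlapping its neighbour in the libraries. Below them, and without overlap, came Irs1 at 6.78 ± 0.556 and Igf2 at 5.13 ± 0.727 RPKM. Igf1 at 3.50 ± 0.77 RPKM overlapped Igf1r at 2.53 ± 0.126 RPKM. RPKM is a level per length, so these genes may be set side by side: Insr was 5.92 to 7.96 times as high as Igf1r in the 4 WT sham libraries. Over all 11 libraries Irs2 varied the most, 13.7 times between its lowest and highest value, and Igf2r the least, 1.53 times. Irs2 is listed only through its highest library, since a gene needed 3 RPKM in a library to be listed. The reads of Igf2 cannot be told apart from those of its antisense neighbour Igf2os, since the labels' protocol describes no step that marks strand.

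**Figure D1:**
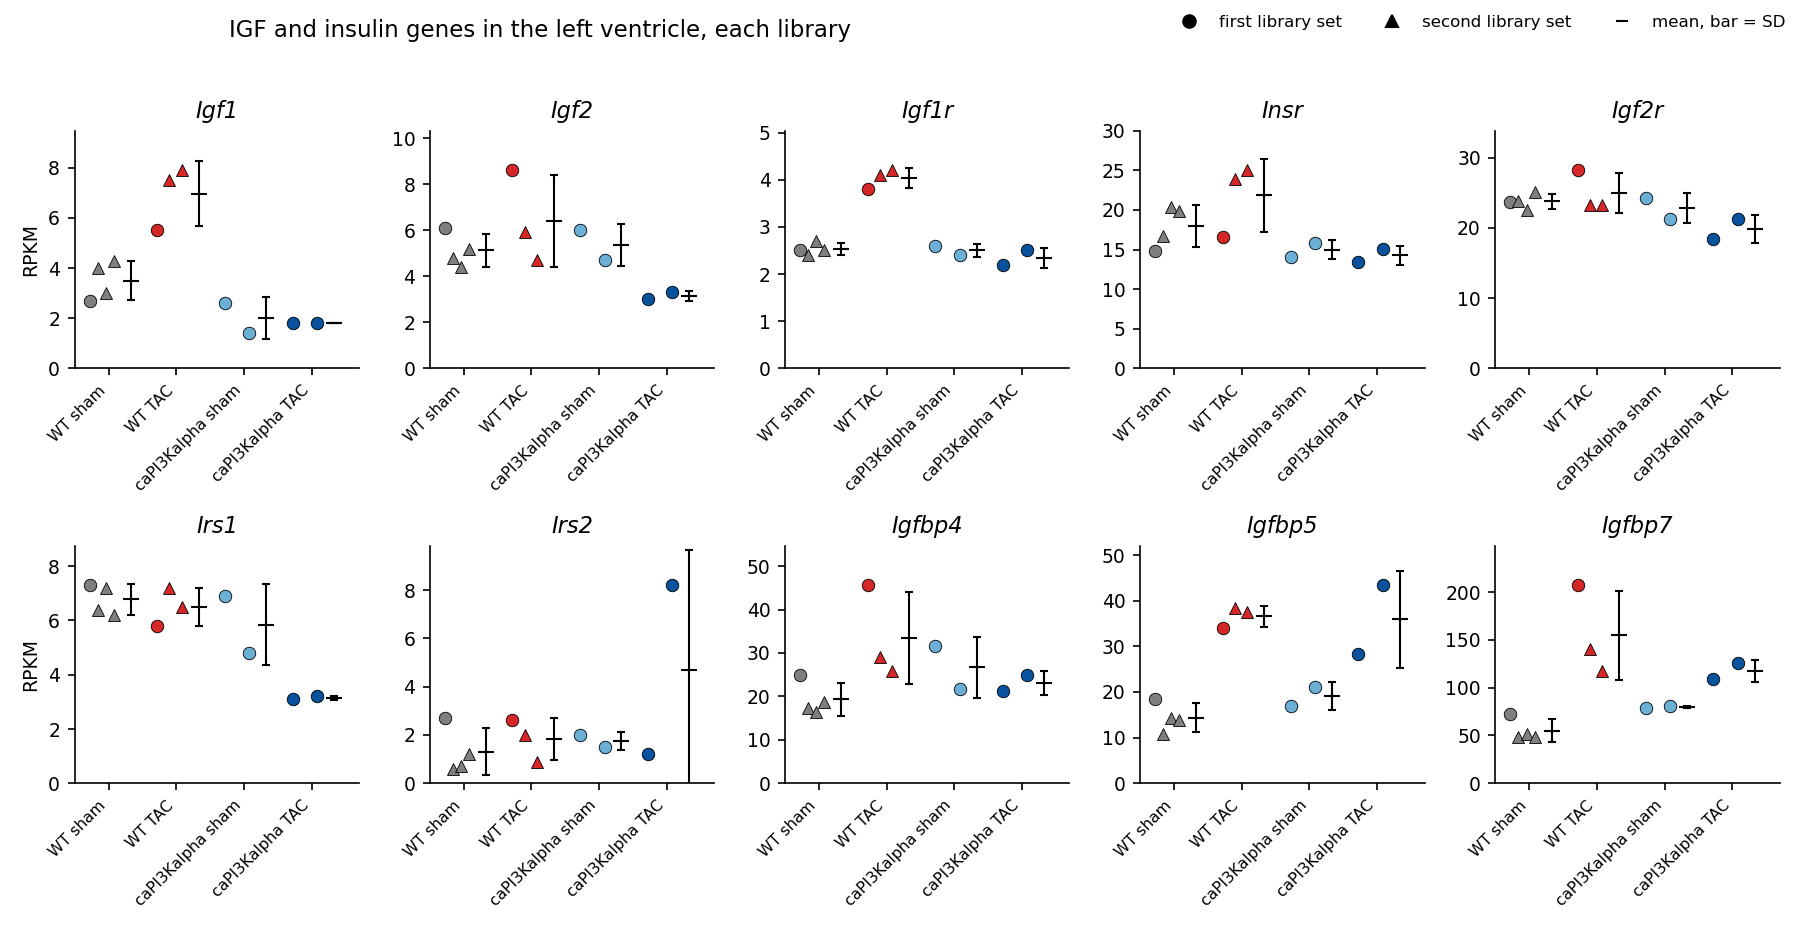
RPKM of the 10 genes in each of the 11 left ventricle libraries, by group, with the mean and SD beside the points (the lower bar of Irs2 in caPI3Kalpha TAC runs below 0 and is cut at the axis); circles are the first library set and triangles the second. Igf1 lies at 5.5 to 7.9 RPKM in WT TAC and at 1.8 RPKM in both caPI3Kalpha TAC libraries, while Igfbp5 is high in both TAC groups.

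Of the 10 genes, 9 had an entry in the RefSeq promoter table (build GRCm38.p6), with 12 promoters in all because Igf2 has 4. The bases before the start are printed below for 4 genes whose transcripts rose or fell in the comparisons that follow and for the 2 others that hold the word CACGTG. They are on the gene's strand, 5′ to 3′, in lower case, with CACGTG in capitals.
Igf1 (chr10:87861011-87861110, plus strand): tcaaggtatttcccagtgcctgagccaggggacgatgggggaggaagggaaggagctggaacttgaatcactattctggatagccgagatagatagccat
Igf1r (chr7:67952157-67952256, plus strand): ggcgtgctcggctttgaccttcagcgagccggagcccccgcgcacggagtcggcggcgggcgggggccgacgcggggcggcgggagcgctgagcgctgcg
Igfbp7 (chr5:77408046-77408145, minus strand): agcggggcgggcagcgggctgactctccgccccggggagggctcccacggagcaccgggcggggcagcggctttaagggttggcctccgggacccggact
Irs1 (chr1:82291440-82291589, minus strand): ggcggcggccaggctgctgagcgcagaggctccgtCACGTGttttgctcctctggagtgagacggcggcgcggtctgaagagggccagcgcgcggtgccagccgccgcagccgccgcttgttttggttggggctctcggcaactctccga
Irs2 (chr8:11008930-11009029, minus strand): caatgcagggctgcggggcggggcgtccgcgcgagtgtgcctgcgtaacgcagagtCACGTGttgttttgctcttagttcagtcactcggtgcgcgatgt
Igf2r (chr17:12769707-12769806, minus strand): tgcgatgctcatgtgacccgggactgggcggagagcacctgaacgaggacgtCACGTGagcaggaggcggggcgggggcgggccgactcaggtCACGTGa
Both strands were searched. CACGTG, an E-box-type word that reads the same on both strands, was in 3 of the 12 promoters, those of Irs1, Irs2 and Igf2r, and in 7.15% of all 32851 promoters. GTAAACA, a word of the kind that FoxO factors bind, was in 0 of the 12 and in 3.65% of all. Only this exact word was searched, so other words that FoxO factors may bind were not looked for. Insr had no entry and was not searched. The windows searched are longer than the bases printed, and for Igf1 and Igf1r they are chr10:87860861-87861160 and chr7:67952007-67952306. Over these whole windows the 2 genes differ in base composition, with 52.3% and 76% G and C.

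In WT hearts the growth factor Igf1, its receptor Igf1r and all 3 binding proteins rose after TAC. With limma's moderated test on log2(RPKM + 0.5), adjusted over all 8987 genes by Benjamini-Hochberg, 5 of 10 genes rose and 0 fell. Over all genes 13.6% rose and 2.85% fell. None of the other 5 was at an unadjusted p under 0.05. The same 5 genes did not overlap between the groups, lying above sham in every TAC library, as did 18.9% of all genes. The median log2 change of the 10 was 0.51 against 0.17 over all genes, so the whole table lay higher in WT TAC on this scale. Centred on library medians, which removes that shift, 3 of the 10 rose (6.24% of all genes), after quantile normalization 2 (5.41%), in the first set alone 1 (0.478%) and in the second set alone 6 (24.9%). Log2 changes below are on the log2(RPKM + 0.5) scale, which understates changes of low genes.

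Igf1, the main growth factor ligand of IGF1R, was at 2.7, 4.0, 3.0 and 4.3 RPKM in WT sham 6, 7, 13 and 15 and at 5.5, 7.5 and 7.9 RPKM in WT TAC 1, 17 and 19. Every TAC library lay above every sham library, and the lowest value of each group was its library of the first set. Igf1 rose by a log2 change of 0.91 ± 0.21 (SE; limma, adjusted p = 0.0150). Without WT TAC 17 or WT TAC 19 the adjusted p was 0.0680 or 0.0589, and centred on library medians Igf1 just missed the threshold (log2 change 0.72, adjusted p = 0.05003). Igf2, the second ligand, was at 6.1, 4.8, 4.4 and 5.2 RPKM in sham and 8.6, 5.9 and 4.7 RPKM in TAC. The groups overlapped, WT TAC 1 alone lay above all sham libraries, and the log2 difference was 0.26 (limma, adjusted p = 0.365).

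Igf1r, the IGF1 receptor, was at 2.5, 2.4, 2.7 and 2.5 RPKM in WT sham and at 3.8, 4.1 and 4.2 RPKM in WT TAC. Both groups were tight and did not overlap. The table lists genes with at least 3 RPKM in a library, and Igf1r reached that in WT TAC alone. It was thus listed only through the group where it is high, which favours a difference from WT TAC in advance. Igf1r rose by 0.58 ± 0.12 (limma, adjusted p = 0.00868), passed the threshold in all 11 fits that left out 1 library, and missed it after quantile normalization (0.30, adjusted p = 0.155). Insr, the insulin receptor, was at 14.8, 16.7, 20.4 and 19.9 RPKM in sham and 16.6, 23.9 and 25.0 RPKM in TAC. WT TAC 1 lay within the sham values, so the groups overlapped, and the log2 difference of 0.27 did not pass (adjusted p = 0.298). With the term for library set Insr passed (0.30, limma, adjusted p = 0.0206), as did the other 5, when 33.1% of all genes rose. For Igf2r, the clearance receptor of IGF2, sham values of 22.5 to 25.1 RPKM enclosed 2 of the TAC values (23.3, 23.3 and 28.2 RPKM), with a log2 difference of 0.06. Its 95% interval ran from -0.19 to 0.31.

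The substrates did not pass the test. Irs1 was at 6.2 to 7.3 RPKM in sham and 5.8 to 7.2 RPKM in TAC, a log2 difference of -0.06 with a 95% interval from -0.36 to 0.24. Irs2, near the floor of the table, was at 2.7, 0.6, 0.7 and 1.2 RPKM in sham and 2.6, 2.0 and 0.9 RPKM in TAC. Its 2 highest values were the 2 libraries of the first set, and its interval from -0.74 to 1.61 is the widest of the 10.

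All 3 binding proteins rose. Igfbp7 was at 72.7, 48.0, 51.6 and 48.3 RPKM in WT sham and 207.2, 140.1 and 117.7 RPKM in WT TAC. The lowest TAC library was above the highest sham library, and the highest value of each group belonged to the first set. The log2 change was 1.46 ± 0.20 (limma, adjusted p = 0.000960), and Igfbp7 passed in all 26 alternative settings tried. Igfbp5, a binding protein that attaches to extracellular matrix, was at 18.5, 10.8, 14.2 and 13.8 RPKM in sham and 34.0, 38.3 and 37.6 RPKM in TAC. The groups lay far apart, and Igfbp5 rose by 1.35 ± 0.19 (limma, adjusted p = 0.00123). Igfbp4, known mostly as an inhibitor of IGF action, was at 24.9, 17.4, 16.3 and 18.8 RPKM in sham and 45.6, 29.0 and 25.8 RPKM in TAC. The lowest TAC library was just above the highest sham library. Its change of 0.75 ± 0.22 (limma, adjusted p = 0.0384) held in only 4 of the 11 fits that left out 1 library; it missed the threshold without WT sham 7, 13 or 15, WT TAC 1 (0.51) or 17, or caPI3Kalpha TAC 11 or 211, with adjusted p from 0.0549 to 0.0959. It also missed it centred on library medians (0.56, adjusted p = 0.127), after quantile normalization (0.66, adjusted p = 0.0944) and in the fit of the compared groups alone (adjusted p = 0.0658).

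**Figure D2:**
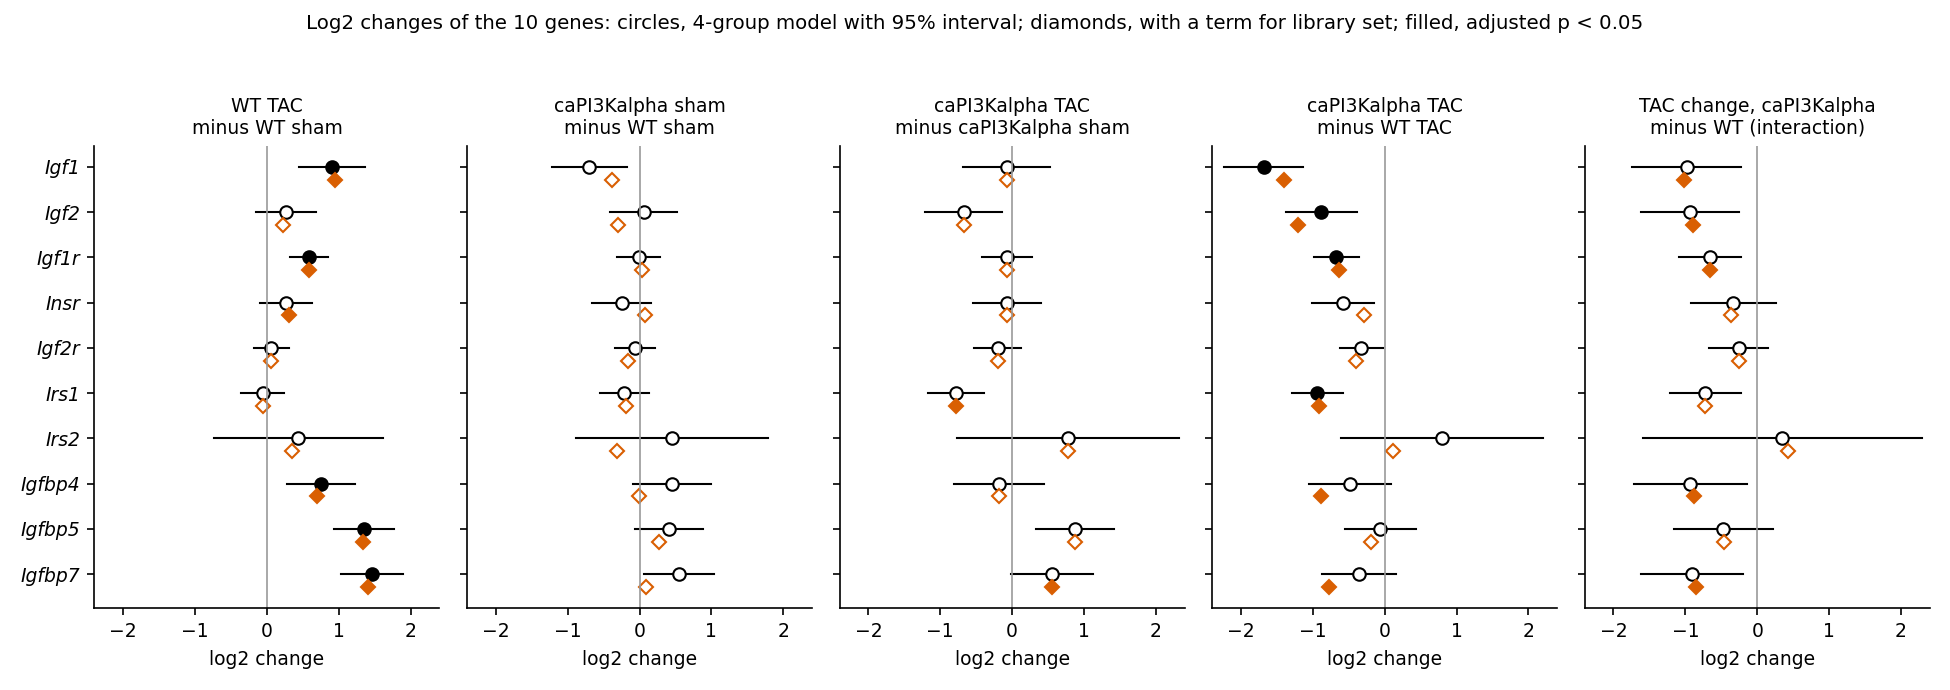
Log2 changes of the 10 genes in the 4 comparisons of groups and the interaction; circles with 95% intervals are the model of 4 groups, diamonds the model with a term for library set, and filled symbols passed at an adjusted p under 0.05. Igf1, Igf1r and the 3 binding proteins are filled to the right of 0 in the WT panel, and Igf1, Igf2, Igf1r and Irs1 to the left of 0 in the panel of caPI3Kalpha TAC minus WT TAC.

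Summed markers of some other cell types also differed between the WT groups. Over all genes 13.6% rose and 2.85% fell, with a median log2 change of 0.17. In bulk tissue, a change in the number of cells of a type and a change in RNA per cell cannot be told apart. Of 9 macrophage markers in the table all 9 rose in WT TAC, their sum going from 115.3 to 134.8 RPKM in sham to 261 to 310.8 RPKM in TAC, with Ctss (a cathepsin) up by 1.57, Lyz2 (lysozyme) by 1.13 and Csf1r (the receptor of a macrophage growth factor) by 1.04 on the log2 scale. Cd163, Itgam and the newer symbol Adgre1 of Emr1 had no row of their own. Emr1 itself had a mean of 1.5 RPKM in WT sham and 5.67 RPKM in WT TAC. Genes are listed at 3 RPKM in a library, so its rise may have been favoured in advance. Of 9 fibroblast markers 6 rose, the sum going from 317.9 to 406.7 RPKM to 945 to 1084 RPKM, with Postn (periostin) up by 3.92 and Col3a1 (a fibrillar collagen) by 2.85. Of 9 cardiomyocyte markers Myh6 (-0.68) and Atp2a2 (-0.49) fell, and the sum was 22995.2 to 24068.4 RPKM in sham and 18117 to 19151.2 RPKM in TAC. Of 7 endothelial markers Pecam1 (CD31) rose by 0.40 (adjusted p = 0.0175), and the sum was 177 to 183.2 RPKM in sham and 200.1 to 211 RPKM in TAC. The median log2 change of the 7 was 0.19, near that of all genes. Of 6 smooth muscle and pericyte markers Tagln (transgelin) rose by 0.79 (adjusted p = 0.0363), while the sums overlapped (153.4 to 193.4 RPKM and 153.2 to 205.1 RPKM). The part of these markers in the changes of the IGF genes was not tested.

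**Figure D3:**
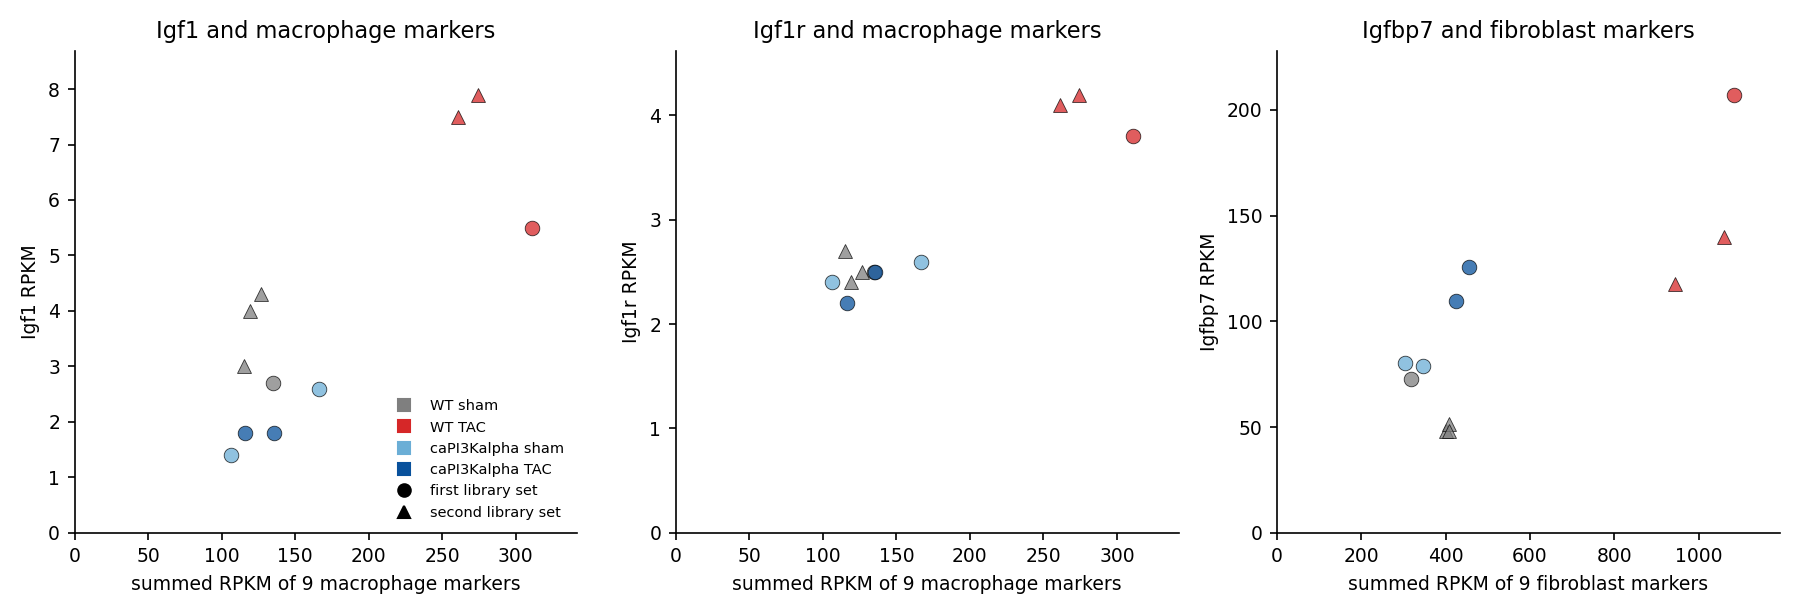
Igf1 and Igf1r RPKM against the summed RPKM of 9 macrophage markers, and Igfbp7 RPKM against that of 9 fibroblast markers, 1 point per library, coloured by group. The 3 WT TAC libraries lie alone at macrophage sums of 261 or more, and the caPI3Kalpha TAC libraries have Igfbp7 at 109.4 and 125.8 RPKM with fibroblast sums of 423.7 and 454.7 RPKM.

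The question of the transgene without pressure load is addressed by caPI3Kalpha sham against WT sham. By limma 0 of 10 genes passed, and 1 of all genes did, Pik3ca itself (0.0111%). At an unadjusted p under 0.05 were 2 of the 10 and 13.3% of all genes. Igf1 was at 2.6 and 1.4 RPKM in caPI3Kalpha sham 5 and 8, below all 4 WT sham libraries (non-overlap below held for 10.1% of all genes), a log2 difference of -0.70 ± 0.24 (adjusted p = 0.326). Igfbp7 was at 79.1 and 80.5 RPKM, above all 4 (9.42% of all genes), a difference of 0.55 ± 0.22 (adjusted p = 0.326). When WT sham 6, which is in the first set, was left out, both passed (Igf1 -0.80, adjusted p = 0.0398; Igfbp7 0.69, adjusted p = 0.0365), and so did 11.6% of all genes upward and 8.71% downward, so the gain was not particular to these 2 genes. With the term for library set the differences were smaller, -0.38 for Igf1 and 0.09 for Igfbp7, and neither passed.

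The receptors and substrates overlapped between the sham groups. Igf1r was at 2.6 and 2.4 RPKM in caPI3Kalpha sham, a log2 difference of -0.01 with a 95% interval from -0.31 to 0.29. Insr was at 14.1 and 15.8 RPKM, Igf2r at 24.3 and 21.3 RPKM, Irs1 at 6.9 and 4.8 RPKM and Irs2 at 2.0 and 1.5 RPKM. Igf2 was at 6.0 and 4.7 RPKM, Igfbp4 at 31.7 and 21.7 RPKM and Igfbp5 at 16.9 and 21.2 RPKM.

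In caPI3Kalpha hearts, TAC gave no gene past limma's threshold, among the 10 or in the table (0.00%), with 2 hearts a group. At an unadjusted p under 0.05 were 3 of the 10 (Igf2, Irs1 and Igfbp5) and 5.05% of all genes. Near the shares over all genes, 2 of the 10 lay apart above sham (22.4% of all genes) and 3 below it (20.0%). Those above were the binding proteins Igfbp5, at 28.4 and 43.4 RPKM in caPI3Kalpha TAC 11 and 211 against 16.9 and 21.2 RPKM, and Igfbp7, at 109.4 and 125.8 RPKM against 79.1 and 80.5 RPKM. Both differences point the way they did in WT hearts, with log2 values of 0.87 ± 0.25 (adjusted p = 0.502) and 0.55 ± 0.26 (adjusted p = 1).

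Those below were Irs1, Igf2 and Igf2r. Irs1, the insulin receptor substrate, was at 3.1 and 3.2 RPKM in caPI3Kalpha TAC, its lowest values in the study, against 6.9 and 4.8 RPKM in caPI3Kalpha sham, a log2 difference of -0.78 ± 0.18 (limma, unadjusted p = 0.00116, adjusted p = 0.273). Igf2 was at 3.0 and 3.3 RPKM against 6.0 and 4.7 RPKM, a difference of -0.67 ± 0.24 (adjusted p = 0.753). Igf2r was at 18.4 and 21.2 RPKM against 24.3 and 21.3 RPKM. With the term for library set Irs1 (adjusted p = 0.0496) and Igfbp7 (adjusted p = 0.0251) passed, when 0.389% of all genes fell and 0.645% rose. Irs1 lost its call in each of the 4 fits with the term that left out WT sham 6, WT TAC 1, caPI3Kalpha TAC 11 or caPI3Kalpha TAC 211, and Igfbp7 lost its own without caPI3Kalpha TAC 211. Igf1 at 1.8 RPKM in both TAC libraries lay between the 2 sham values, and Igf1r at 2.2 and 2.5 RPKM overlapped sham, with a difference of -0.08 and a 95% interval from -0.42 to 0.27.

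Irs2 stood out for a lone library. It was at 8.2 RPKM in caPI3Kalpha TAC 211 and at 1.2 RPKM in caPI3Kalpha TAC 11. The other 9 libraries ran from 0.6 to 2.7 RPKM. Only caPI3Kalpha TAC 211 reached the 3 RPKM in a library that listing requires. Irs2 is thus in the table only through that library, and a high library was a condition of its listing. The log2 difference from caPI3Kalpha sham of 0.78 ± 0.70 turned to -0.40 without caPI3Kalpha TAC 211. Irs1 was 0.39 times as high as Irs2 in that library and 2.23 to 10.7 times as high in the others.

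Under pressure load the genotypes differed at both ligands, at Igf1r and at Irs1. Between caPI3Kalpha TAC and WT TAC 4 of 10 genes were lower and 0 higher by limma, against 5.78% of all genes lower and 0.746% higher. Apart from WT TAC, below every library of it, lay 7 of the 10 and 36.2% of all genes. The median of the 10 was -0.53 and that of all genes -0.18. WT TAC also stands in the comparison with WT sham, so the values of the 2 comparisons share its 3 libraries.

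Igf1 had the largest difference of the 10: 1.8 and 1.8 RPKM in caPI3Kalpha TAC against 5.5, 7.5 and 7.9 RPKM in WT TAC. Both transgenic hearts lay below WT TAC and also below all 4 WT sham hearts. The log2 difference was -1.68 ± 0.25 (limma, adjusted p = 0.00786), and within the first set, where WT TAC 1 is the only WT TAC library, it was -1.38 (adjusted p = 0.149). Igf1 fell short of the threshold without caPI3Kalpha TAC 11 (adjusted p = 0.108) or 211 (adjusted p = 0.0761), which leaves 1 heart in that group. Igf2, at 3.0 and 3.3 RPKM against 8.6, 5.9 and 4.7 RPKM, was lower by a log2 change of -0.88 ± 0.22 (limma, adjusted p = 0.0435). It is the least stable of the 4 calls and held in 2 of the 11 fits that left out 1 library, those without WT sham 6 or WT TAC 1; the adjusted p of the other 9 ran from 0.0536 to 0.211.

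Igf1r, at 2.2 and 2.5 RPKM against 3.8, 4.1 and 4.2 RPKM in WT TAC, lay within or below the range of the 6 sham hearts of both genotypes (2.4 to 2.7 RPKM). Its difference was -0.67 ± 0.14 (limma, adjusted p = 0.0294). Igf1r is listed only through WT TAC, so this difference too was favoured in advance. Irs1, at 3.1 and 3.2 RPKM against 5.8, 7.2 and 6.5 RPKM, was lower by -0.93 ± 0.16 (limma, adjusted p = 0.0166), and unlike Igf1r it was also below every sham heart. Both genes missed the threshold without WT TAC 17 or 19 or either caPI3Kalpha TAC library, with adjusted p from 0.0571 to 0.188. Centred on library medians, which removes the shift of -0.18 over all genes, Igf1 (-1.52) and Irs1 (-0.77) still passed, beside 1.55% of all genes, while Igf1r (-0.51, adjusted p = 0.0776) and Igf2 (-0.72, adjusted p = 0.0975) did not. Igf1 and Irs1 also passed after quantile normalization, beside 1.59% of all genes. With the compared groups fitted alone 1 of the 10, Igf1, passed, and within the first set 0 did (0.0111% of all genes).

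Insr, Igf2r and Igfbp4 also lay below every WT TAC library without passing. Insr was at 13.4 and 15.1 RPKM against 16.6, 23.9 and 25.0 RPKM (log2 difference -0.58, adjusted p = 0.0833). It passed without WT sham 6 (adjusted p = 0.0423, when 17.5% of all genes were lower) or WT TAC 1 (-0.76, adjusted p = 0.0130, when 28.1% were). Igf2r was at 18.4 and 21.2 RPKM against 28.2, 23.3 and 23.3 RPKM (-0.32, adjusted p = 0.127), and Igfbp4 at 21.2 and 25.0 RPKM against 45.6, 29.0 and 25.8 RPKM (-0.49, adjusted p = 0.205). Igfbp5 overlapped between the TAC groups, with a difference of -0.06 and a 95% interval from -0.56 to 0.44, and Igfbp7 did too (-0.36, adjusted p = 0.290). With the term for library set 6 of the 10 were lower: Igf1 (-1.40), Igf1r (-0.63), Igf2 (-1.20), Irs1 (-0.91), Igfbp4 (-0.89) and Igfbp7 (-0.77), when 7.74% of all genes were. With that term and without WT TAC 1, 0 passed (0.823% of all genes were lower).

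Several of the same marker lists differed here, where 5.78% of all genes were lower and 0.746% higher. Of the 9 macrophage markers 6 were lower in caPI3Kalpha TAC than in WT TAC, with sums of 116.2 and 135.6 RPKM, within the range of the 2 sham groups (106.1 to 166.4 RPKM). Ctss (-1.58), Lyz2 (-1.42) and the mannose receptor Mrc1 (-1.44) had the smallest p. Emr1, also among the 6, had a mean of 1.45 RPKM against 5.67 RPKM in WT TAC. Listing at 3 RPKM in a library may have favoured that difference in advance. Of 9 fibroblast markers 4 were lower, with sums of 423.7 to 454.7 RPKM, above the highest sham sum of 406.7 RPKM, and Postn differed by -2.55. Smooth muscle and pericyte markers (6 of 6 listed) summed to 126.2 and 126.7 RPKM in caPI3Kalpha TAC and 153.2 to 205.1 RPKM in WT TAC, and Acta2 (smooth muscle actin) was lower by a log2 change of -1.36 (adjusted p = 0.0407). Of 7 endothelial markers Pecam1 was lower (-0.45, adjusted p = 0.0451), with sums of 167.1 to 190.8 RPKM against 200.1 to 211 RPKM. The median of the 7 was -0.23, near the -0.18 of all genes. Of 9 cardiomyocyte markers Ryr2, the calcium release channel, was lower (-0.59, adjusted p = 0.0380) and 0 were higher by limma. The list as a whole went the other way, with a median of 0.11 against -0.18 over all genes. Its sums were 20115.5 and 20860.9 RPKM in caPI3Kalpha TAC and 18117 to 19151.2 RPKM in WT TAC. The part of these markers in the differences was not tested.

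Whether TAC changed the genes by a different amount in the 2 genotypes is asked by the interaction term. By limma 0 of 10 genes passed, against 0.312% of all genes with a negative interaction and 0.00% with a positive one. At an unadjusted p under 0.05 were 6 of the 10, all negative (Igf1, Igf1r, Igf2, Irs1, Igfbp4 and Igfbp7), and 8.97% of all genes were there with a negative value. The estimate was negative for 9 of 10 and for 69.7% of all genes. Since Igf1r is listed only through WT TAC, a negative interaction was favoured in advance for it. With the term for library set 5 passed, all negative, when 5.92% of all genes did: Igfbp7 (-0.86, adjusted p = 0.00436), Igf2 (-0.90, adjusted p = 0.0257), Igfbp4 (-0.88, adjusted p = 0.0289), Igf1r (-0.66, adjusted p = 0.0422) and Igf1 (-1.02, adjusted p = 0.0471). That count was 1 without WT sham 6, 1 without WT TAC 1, 1 without caPI3Kalpha TAC 11 and 2 without caPI3Kalpha TAC 211. Within the first set alone it was 0 (0.00% of all genes).

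The balance of binding proteins and ligands is given as a description, since the sums were formed from members whose values were known. The summed RPKM of Igf1 and Igf2 was 8.62 ± 0.881 in WT sham, 13.4 ± 0.751 in WT TAC, 7.35 ± 1.77 in caPI3Kalpha sham and 4.95 ± 0.212 in caPI3Kalpha TAC (mean and SD of 4, 3, 2 and 2 libraries). The summed RPKM of the 3 binding proteins was 88.8 ± 18.4, 225.1 ± 55.0, 125.5 ± 3.04 and 176.6 ± 24.9 in the same order. Their ratio ran from 8.52 to 13.2 in the 4 WT sham hearts and from 14.4 to 20.3 in the 3 WT TAC hearts, and was 14.8 and 20.2 in caPI3Kalpha sham, and 33.1 and 38.1 in caPI3Kalpha TAC. Both caPI3Kalpha TAC hearts lay above the other 9. In each WT group the highest ratio was that of the first-set library, WT sham 6 (13.2) and WT TAC 1 (20.3). All 4 caPI3Kalpha libraries are in that set, so genotype and set are partly confounded for this ratio. In caPI3Kalpha TAC the 2 sums behind the ratio stood as follows. The mean ligand sum of caPI3Kalpha TAC was the lowest of the 4 groups, while its mean binding protein sum was below that of WT TAC. Igfbp7, with low affinity for IGFs, made up most of that sum (mean 117.6 RPKM in caPI3Kalpha TAC). Igfbp3 and Igfbp6 were not in it. Igf2r over Igf2 was likewise highest there, at 6.13 and 6.42 against 3.28 to 5.11 in the other libraries.

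Of 104 other genes of the pathway, listed by function, 79 were in the table. In WT TAC 9 of them rose (11.4%, against 13.6% of all genes) and 3 fell (3.80%, against 2.85%), shares near those of the whole table. Among ligands and carriers 2 of 10 were listed: Igfbp3, the main carrier of circulating IGFs, rose by 0.88 to 7.20 ± 0.520 RPKM, and Igfbp6 had a log2 difference of 0.65 (adjusted p = 0.277). The insulin genes Ins1 and Ins2 and the binding proteins Igfbp1 and Igfbp2 are not listed in the table. Of 4 listed proteases that cut binding proteins, or their inhibitors, Adamts1 rose by 0.83.

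Among 14 receptor adaptors 3 rose, Shc1 (0.74), Cbl (0.72, a ubiquitin ligase) and Gab2 (0.60), and Grb14, an adaptor that inhibits the insulin receptor, fell by 0.50 on the log2 scale. Of 14 receptor brakes Enpp1, an ectoenzyme that inhibits the insulin receptor, rose by 1.54 (limma, adjusted p = 0.000285; 1.33 ± 0.236 RPKM in sham and 4.80 ± 0.656 RPKM in TAC), and the phosphatase Ptpn1 by 0.72. Among the 26 PI3K and Akt steps Tbc1d4, an Akt substrate in glucose transport, fell by 0.45 on the log2 scale. Of 16 FoxO-responsive genes, a list that holds Insr and Irs2, Sesn3 rose by 0.89 and Pdk4, which restrains glucose oxidation, fell by 0.88. Sesn3 had a mean of 1.6 RPKM in sham and 3.33 RPKM in TAC. Listing at 3 RPKM in a library may thus have favoured its rise in advance. Of the 6 growth hormone axis genes 0 passed by limma, also at an unadjusted p under 0.05, and Socs2 came closest (0.57, adjusted p = 0.168).

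Between the TAC groups 2.53% of the 79 were higher and 6.33% lower, beside 0.746% and 5.78% of all genes. The 2 higher in caPI3Kalpha hearts were Pik3ca (3.75) and Pdk4 (1.23; 94.6 RPKM or more in both hearts against 51.6 ± 1.81 RPKM in WT TAC). Lower were 5, among them Enpp1 (-0.92), Cbl (-0.68), Frs2 (-0.54) and Tbc1d4 (-0.47). Cbl and Enpp1 thus stood higher in WT TAC than in the groups on both sides of it, as Igf1 and Igf1r did. These comparisons share the WT TAC libraries. Outside WT TAC the group means of Cbl, Enpp1 and Igf1r were all under the listing minimum of 3 RPKM. Listing at 3 RPKM in a library thus favours such a peak for these genes in advance. The median of the 79 was 0.11 in WT TAC against WT sham and -0.12 between the TAC groups, beside 0.17 and -0.18 over all genes. In caPI3Kalpha sham against WT sham only Pik3ca (4.32) passed. By limma 0 of the 79 passed after TAC in caPI3Kalpha hearts and 0 at the interaction (6 and 5 at an unadjusted p under 0.05). Genes whose interaction passed with the term for library set included Enpp1 (-1.01), Cbl (-0.94), Slc2a1 (-0.75, a glucose transporter) and Shc1 (-0.70), and, with a positive sign, Pdk4 (1.86, limma, adjusted p = 0.0230).

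**Figure D4:**
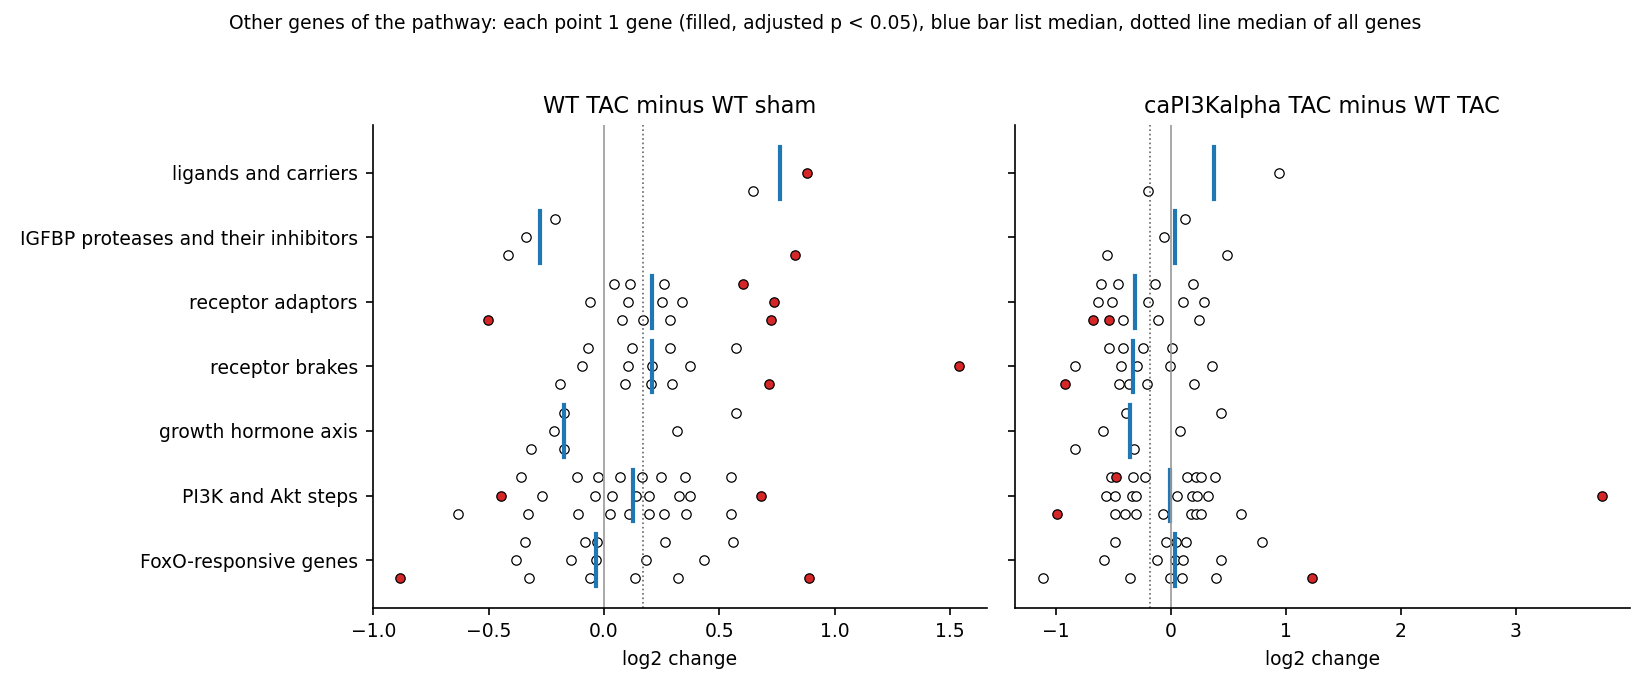
Log2 changes of the other pathway genes in each list, for WT TAC minus WT sham and caPI3Kalpha TAC minus WT TAC; a filled point passed at an adjusted p under 0.05, the blue bar is the list median and the dotted line the median of all genes. Enpp1 is the rightmost point of the first panel at 1.54, and Pik3ca, the gene of the transgene's product, that of the second at 3.75.

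The genes most like each member over the 11 libraries, by Pearson's r of log2(RPKM + 0.5), are a description; the points share groups and library sets. Igfbp7 was closest to Col6a2 (r = 0.992), Mxra8 (0.988) and Islr (0.985), and with each library set centred on its mean these were 0.991, 0.990 and 0.983. Igf1r was closest to Fcgr2b (0.981), Lgmn (0.978) and Iqgap1 (0.972), and Igf1 to Rars (0.969), Ms4a6c (0.968) and Slc38a2 (0.967). Insr was closest to Stag1 (0.982). Igf2 was closest to C3 (0.958), Irs1 to Ednra (0.920, and 0.787 without the caPI3Kalpha TAC libraries) and Igf2r to Myh11 (0.935). Irs2 was closest to Myh7 (0.966), which was 0.897 without the 2 farthest libraries, caPI3Kalpha TAC 211 and WT sham 7. Igfbp5 was closest to Mybpc2 (0.981) and Igfbp4 to Stab1 (0.967). Among the members themselves Igf2 and Igf2r gave 0.900, and 0.695 without WT TAC 1 and caPI3Kalpha TAC 11. Igf1 and Igf1r gave 0.856, and 0.655 without WT TAC 17 and 19.

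The gene of miR-483 lies within the span of Igf2, and its reads were looked up in the 16 small RNA libraries of the same 4 groups. The miRNA had 10 reads in all of 83138135, with 4 in WT sham, 3 in caPI3Kalpha sham, 3 in caPI3Kalpha TAC and 0 in the 23702172 reads of WT TAC, which allows up to 3 reads in that total. It did not pass the filter on low counts, so it was not tested, and a difference between groups was not detectable at this depth. That limit covers counting error only.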

How the data were processed

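The authors deposited RPKM per gene for 11 mRNA libraries (poly-A selected, single-end reads per the labels' protocols; genes with at least 3 RPKM in a library are listed) and raw read counts per miRNA for 16 small RNA libraries, deposited per the file headers. The submitters' processing notes name CASAVA 1.6, Bowtie, Partek 6.5 and mm9 without giving their roles. The mRNA file has 9183 lines, from which 193 empty lines, 1 with an error value and 2 repeated ones were dropped; miRNA libraries held 3114229 to 7676588 reads. From RPKM, limma 3.58.1 (R 4.3.3; lmFit, eBayes with trend) was fitted to log2(RPKM + 0.5) in 1 model of 4 groups over 8987 genes; requiring a mean of 1 RPKM dropped 0 of them. Tests were two-sided, with a Benjamini-Hochberg adjusted p under 0.05. edgeR 4.0.16 (filterByExpr, TMM) kept 257 of 421 miRNAs. Library sets follow the sign of principal component 1. The fit was tested on simulated data. Alternatives were other pseudocounts, filters, scalings, library sets and left-out libraries; the fits with both a term for library set and a library left out were chosen after seeing the data. Replicates are separate animals. Members and lists were chosen with earlier results of these data known. Named were the members, up to 4 genes of a pathway list and 3 of a marker list with the smallest p, and the 3 genes most like each member. A pathway-list gene that enters the counts is not reported here by name.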

Additional observations from a re-analysis of the deposited data

Results flagged for a closer look

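Igfbp7 in WT sham 6 was at 72.7 RPKM while the other 3 WT sham libraries were at 48.0 to 51.6 RPKM, a gap that passes Dixon's 95% value for 4 samples. It was the only one flagged of 10 groups of 4 tested in this way. Chance gives about 1 in 20 for each group tested, so 1 flag among 10 groups is not unusual. WT sham 6 is the WT sham library of the first set, and Igfbp7 in caPI3Kalpha sham passed against WT sham when it was left out, as did 11.6% of all genes upward and 8.71% downward.

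With the term for library set, 5 genes passed limma's interaction test of the change after TAC between the genotypes. They were Igf1 (-1.02), Igf1r (-0.66), Igf2 (-0.90), Igfbp4 (-0.88) and Igfbp7 (-0.86). The sets behind that term come from the same expression values, so its p-values may be too small. Without that term 0 of the 10 passed, and with it but without WT sham 6, WT TAC 1, caPI3Kalpha TAC 11 or caPI3Kalpha TAC 211 there were 1, 1, 1 and 2.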

How the results depend on the processing

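Limits: groups of 2 or 3 hearts, an unknown read depth, RPKM at 1 decimal (coarse for Irs2 and Igf1) and library sets that partly follow genotype. The cause of each change below was not tested. No paired analysis was possible because the mRNA libraries of the groups share no animal number. Other settings were not run for miR-483, which did not pass the filter.

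Of the 10 genes, 5 passed in WT TAC against WT sham, 2 after quantile normalization, 3 centred on library medians, 3 at a mean of 5 RPKM (7 genes tested), 1 in the first set alone and 3 to 5 without 1 library. Between the TAC groups 4 passed, 2 after quantile normalization, 2 centred, 1 at a mean of 5 RPKM, 1 with the compared groups alone, 0 in the first set alone, 6 with the set term, 4, 0, 3 and 5 with it and without WT sham 6, WT TAC 1, caPI3Kalpha TAC 11 or 211, and 0 to 5 without 1 library; Igfbp7 passed in 4 and Igfbp4 in 3 of these 5 fits with the term. In caPI3Kalpha sham against WT sham 0 to 2 passed without 1 library. After TAC in caPI3Kalpha hearts 2 passed with the set term, and 1, 1, 3 and 0 with it and without WT sham 6, WT TAC 1, caPI3Kalpha TAC 11 or 211. At the interaction 5 passed with the set term, and 1, 1, 1 and 2 with it and without WT sham 6, WT TAC 1, caPI3Kalpha TAC 11 or 211.

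Signs also turned in genes that did not pass, given here as log2 differences. In WT TAC against WT sham, Igf2r was -0.059 after quantile normalization, -0.13 centred, -0.031 in the second set alone and with the set term without WT sham 6 or WT TAC 1, and -0.029 to 0.11 without 1 library. Irs1 was 0.051 in those last 3 settings and -0.13 to 0.016 without 1 library, and Irs2 -0.046 in the first set alone.

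In caPI3Kalpha sham against WT sham, the set term gave Igf1r 0.034, Igf2 -0.30, Insr 0.082, Irs2 -0.32 and Igfbp4 -0.0064, alone and without caPI3Kalpha TAC 11 or 211. With it and without WT sham 6 Igf1r was 0.097, Igf2 -0.52, Insr 0.21, Irs1 0.042 and Igfbp4 -0.15. In the first set alone, and with the term without WT TAC 1, Igf2 was -0.18, Insr 0.012 and Irs2 -0.52. Without 1 library Igf1r ran from -0.060 to 0.036, Igf2 from -0.10 to 0.22, Igf2r from -0.16 to 0.030 and Irs1 from -0.45 to 0.028.

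After TAC in caPI3Kalpha hearts the ranges without 1 library were -0.43 to 0.28 for Igf1, -0.15 to 0.00080 for Igf1r, -0.15 to 0.016 for Insr, -0.40 to 1.96 for Irs2 and -0.45 to 0.084 for Igfbp4. With the set term, Igf1r was 0.00080 and Insr 0.016 without caPI3Kalpha TAC 11, and Irs2 -0.40 without 211. At the interaction Irs2 ran from -0.83 to 1.52 without 1 library and was -0.75 with the term without caPI3Kalpha TAC 211, and Igfbp5 was 0.014 in the first set alone. Between the TAC groups Irs2 ran from -0.38 to 1.97 without 1 library, and was -0.25 with the term without WT TAC 1 and -1.06 without caPI3Kalpha TAC 211. Igfbp5 ran from -0.36 to 0.24 without 1 library, and was 0.025 after quantile normalization, 0.11 centred, 0.046 in the first set alone, 0.046 with the term without WT sham 6 and 0.11 with it without caPI3Kalpha TAC 11.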

Other observations

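Among pairs of the 10 genes, some relations across libraries differ with and without the library sets, as a description of these 11 libraries. Igf1 and Igfbp4 gave Pearson's r = 0.31 over all 11 libraries and 0.95 with each set centred on its mean, and Igf1 and Igfbp7 gave 0.25 and 0.76. Without WT TAC 17 and 19, the libraries farthest from the median of Igf1, the uncentred values were 0.24 and -0.052. Igf2 and Igf2r gave 0.90 and 0.92, and 0.70 without WT TAC 1 and caPI3Kalpha TAC 11 (uncentred). Set and genotype are partly confounded, since all 4 caPI3Kalpha libraries are in the first set.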
